A study of Mus musculus with 18 samples.

Results

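The comparison asked whether the kidney cortex changed in the same way during a recovery period after toxin injury when the transcription factor Klf15 had been removed from the proximal tubule. It was formed per gene on log2(RPKM + 1) as the change between AA 4wk and AA 2wk in PTKO mice minus the same change in fl/fl mice, and a positive value means a more positive change in PTKO. It used 12 of the 18 libraries of the study, with 3 libraries in each of 4 groups. PTKO AA 4wk and PTKO AA 2wk came from Klf15PTKO mice, and fl/fl AA 4wk and fl/fl AA 2wk from Klf15fl/fl mice with floxed Klf15, all of strain C57Bl/6. In the AA 4wk groups 2 weeks of aristolochic acid I (AAI) were followed by 2 weeks of remodeling, and in the AA 2wk groups kidneys were taken after the 2 weeks of AAI. The other 6 libraries, 3 PTKO DMSO and 3 fl/fl DMSO, entered through the shared estimate of the spread and are given as levels. The sources used here give neither the Cre line nor the exons removed nor the age of the mice. No group is labelled as carrying Cre beside intact Klf15, and an effect of Cre itself cannot be told apart from loss of Klf15. The labels also do not say that the libraries of a group are separate mice, so p-values measure only the spread between these libraries.

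Klf15 is a zinc finger factor of the Krüppel-like family that is induced by glucocorticoids and regulates genes of amino acid, glucose and lipid use in several tissues. The proximal tubule reabsorbs most filtered glucose, amino acids and phosphate, and runs largely on mitochondrial fatty acid oxidation. AAI is a plant toxin that enters proximal tubule cells through organic anion transporters such as those encoded by Slc22a6 and Slc22a8, and damages DNA there. After such an injury, tubule cells may regain transport function or stay dedifferentiated, while macrophages, T cells and matrix-producing fibroblasts gather between the tubules.

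Depth, recovered from the steps of the RPKM values, was 10.98 to 18.377 M reads in the 12 AA libraries, and all 18 libraries expressed the Y-linked genes Ddx3y, Eif2s3y, Uty and Kdm5d, with Xist at 0.02 RPKM or less. Both AA 2wk libraries numbered 3 stood apart. On the first principal component, which held 81.9% of the variance, they lay at -7.1 in PTKO and -7.3 in fl/fl, while the other 4 AA 2wk libraries lay between 34.0 and 48.6, the AA 4wk libraries between 37.7 and 65.9 and the DMSO libraries between -90.0 and -66.1. Without PTKO AA 2wk library 3, 25 of 35 gene-list medians moved by over 0.1 and either by over 1.5 times or through 0. Without fl/fl AA 2wk library 3 it was also 25 of 35, and without both libraries 9. Most list values are therefore given with and without them. Klf15 was lower in PTKO DMSO cortex, with 31.0 ± 2.2 RPKM in PTKO DMSO and 59.9 ± 6.33 RPKM in fl/fl DMSO (SD, n = 3 each), which are not among the 12 libraries compared. In the AA groups its levels overlapped between genotypes at AA 2wk and were separate at AA 4wk, and neither genotype contrast was called by limma (-0.52, adjusted p = 0.763 at AA 2wk, and -0.63, adjusted p = 0.812 at AA 4wk). Part of the signal in PTKO cortex can come from cells outside the proximal tubule. In cortex RNA, fewer cells of a type and less RNA per cell cannot be told apart.

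No gene was called for a genotype difference in the change between AA 2wk and AA 4wk. Limma with Benjamini-Hochberg adjustment called 0 of 13624 genes tested at an adjusted p of 0.05 (0.0%), and the smallest adjusted p was 0.93. An unadjusted p under 0.05 was found for 442 genes, of which 267 had a positive difference (1.96% of genes tested) and 175 a negative one (1.28%). Voom on the recovered reads also called 0 genes, with 418 at an unadjusted p under 0.05. The median of the difference over all genes was 0.09, and 67.5% of genes had a positive value, while scaling by median of ratios or by quantiles moved that median to 0.00 and -0.00. Differences in the text are given without removing this shift. Counts of positive members in a gene list are to be read against the 67.5% of all genes.

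The size of difference these libraries could show varied between genes. The SE of the difference was 0.21 for the median gene, and the 5th and 95th percentiles of the SE were 0.11 and 0.56 on the log2 scale. The 95% interval of the difference lay within 1 log2 unit on either side of 0 for 10902 genes, or 80.0% of those tested. These intervals are on log2(RPKM + 1), which understates changes of low genes, so for such genes they are no bound on the fold change. With a pseudocount of 0.1 in place of 1, the difference of Enkur went from 0.81 to 1.41 and that of S100z from -0.86 to -2.26. Estimates beyond 1 log2 unit were found for 110 genes above and 43 genes below 0. A difference that lies within a gene's interval is not excluded, and its absence is not shown. The interval is not the limit of a call, since calls used p-values adjusted over all genes tested. For the gene Hsd17b2, described below, the interval ran from 0.83 to 1.95, and the limma adjusted p was 0.93. A gene whose interval excluded 0 could therefore still go uncalled.

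Taken by themselves, the changes in each genotype yielded unequal counts. In PTKO cortex 567 genes were called, 354 higher (2.6%) and 213 lower (1.56%) at AA 4wk than at AA 2wk. In fl/fl cortex 17 genes were called, 9 higher (0.0661%) and 8 lower (0.0587%). The counts do not show that the genotypes differ, since the test of the difference called 0 genes. With median-of-ratios scaling the PTKO calls were 227 higher and 207 lower, and with quantile normalization 492 higher and 590 lower, and the median of all genes in the PTKO change moved to -0.01 and -0.04 against 0.10. PTKO calls dropped to 10 without PTKO AA 4wk library 2, 23 without PTKO AA 4wk library 3 and 102 without PTKO AA 2wk library 3, and reached 1599 without fl/fl AA 2wk library 3 and 1309 without PTKO AA 2wk library 1. Without both AA 2wk libraries numbered 3 there were 821 calls in PTKO and 43 in fl/fl.

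Most genes called in one genotype had the same sign in the other. Of the 354 genes higher in PTKO, 347 (98.0%) also had a positive change in fl/fl, against 52.0% of all genes tested. Their median log2 changes were 0.72 in PTKO and 0.40 in fl/fl. Of the 213 lower genes, 198 (93.0%) had a negative change in fl/fl, with medians of -0.57 in PTKO and -0.27 in fl/fl. The calls were made on the PTKO values, so a smaller median in the other genotype is a description and no test. All 9 genes called higher and all 8 called lower in fl/fl had the same sign in PTKO, with medians of 1.67 in PTKO and 1.30 in fl/fl for the first and -0.56 in PTKO and -1.46 in fl/fl for the second. Across the 13624 genes, which are not independent replicates, Pearson's r between the 2 changes was 0.65 and Spearman's rho 0.64. Both AA 2wk libraries numbered 3 deviated in the same direction, and the deviation enters both changes. Without these 2 libraries r was 0.55 and rho 0.56, and of the PTKO calls of all libraries 343 of the higher genes (96.9%) and 188 of the lower genes (88.3%) had the same sign in fl/fl. Of the PTKO calls made without these libraries, 411 of 460 higher genes (89.3%) and 328 of 361 lower genes (90.9%) did.

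**Figure D1:**
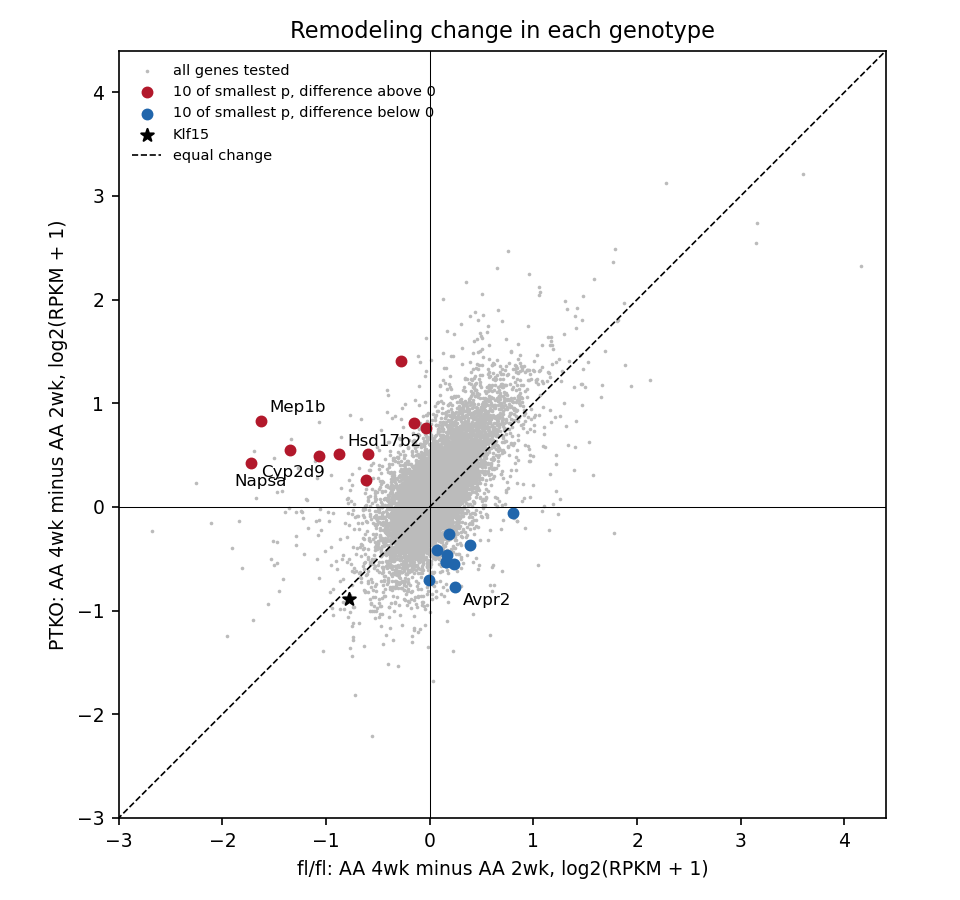
Log2 change between AA 4wk and AA 2wk in PTKO (vertical) against fl/fl (horizontal) for each gene tested, with the dashed line marking equal change. The changes of both genotypes were correlated across genes (r = 0.65). The 10 genes of smallest p on each side of the line, in red and blue, and Klf15 (star) are marked.

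The 12 genes called in both genotypes all changed in the same direction. Chp2, a calcineurin B-like calcium-binding protein, was higher by 1.81 in PTKO and by 1.81 in fl/fl, with a difference of -0.01 ± 0.27 (SE). Trf, the iron carrier transferrin, was higher by 1.67 in PTKO and 1.30 in fl/fl, Clec10a, a lectin of macrophages and dendritic cells, by 1.96 in PTKO and 1.87 in fl/fl, and Lyl1, a blood cell transcription factor, by 1.40 in PTKO and 1.22 in fl/fl. Tmigd1, an adhesion molecule of tubule cells, was lower in both (-0.94 in PTKO and -1.56 in fl/fl), as was the carboxylesterase Ces2e (-1.25 in PTKO and -1.96 in fl/fl).

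Klf15 fell short of a call in both changes. It stood at 9.11, 8.81 and 9.53 RPKM in PTKO AA 4wk, 12.5, 17.5 and 25.6 in PTKO AA 2wk, 11.6, 14.6 and 18.8 in fl/fl AA 4wk, and 22.9, 18.6 and 41.3 in fl/fl AA 2wk. The times did not overlap in PTKO and overlapped in fl/fl by 1 library, that at 18.8 RPKM. The change was -0.89 in PTKO (limma adjusted p = 0.0628) and -0.78 in fl/fl (adjusted p = 0.253), and the difference was -0.11 ± 0.36 (SE, limma unadjusted p = 0.767, adjusted p = 0.96). Of the 14 Klf family genes tested, 11 had a positive difference and 0 were called, with a median of 0.21 against 0.09 for all genes (0.10 without both AA 2wk libraries numbered 3). Klf10, a TGF-beta-inducible member, had the smallest p of them (0.48 ± 0.27, unadjusted p = 0.0987).

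Among the 10 genes with the smallest p and a positive difference, several were secretory or metabolic genes of the proximal tubule whose level was under that of DMSO cortex. Their adjusted p was at least 0.93, and the following values describe them. Hsd17b2, an oxidative 17-beta-hydroxysteroid dehydrogenase that inactivates sex steroids (chromosome 8, 117700982 to 117759030, RefSeq GRCm38), had 2.27, 1.90 and 2.13 RPKM in PTKO AA 4wk, 1.79, 1.25 and 0.63 in PTKO AA 2wk, 1.20, 0.751 and 1.58 in fl/fl AA 4wk, and 3.69, 2.22 and 3.07 in fl/fl AA 2wk. Every AA 4wk library lay above every AA 2wk library in PTKO and below every one in fl/fl. The difference was 1.39 ± 0.26 (SE, unadjusted p = 9.32e-05), made of a change of 0.51 in PTKO and -0.88 in fl/fl. The values rest on 10 to 81 reads per AA library, and DMSO cortex averaged 15.3 RPKM in PTKO and 12.4 in fl/fl.

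Mep1b, the beta subunit of the brush border protease meprin, had 11.9, 6.28 and 7.53 RPKM in PTKO AA 4wk, 8.90, 2.38 and 3.28 in PTKO AA 2wk, 5.29, 4.33 and 10.7 in fl/fl AA 4wk, and 35.8, 12.2 and 23.0 in fl/fl AA 2wk. The times overlapped in PTKO and did not overlap in fl/fl, where every AA 4wk library was lower. The difference was 2.46 ± 0.57 (SE, unadjusted p = 0.000645), and at AA 2wk PTKO stood 2.12 ± 0.40 below fl/fl (limma adjusted p = 0.204). Napsa, the aspartic protease napsin A, had 309, 265 and 288 RPKM in PTKO AA 4wk, 365, 216 and 124 in PTKO AA 2wk, 205, 144 and 303 in fl/fl AA 4wk, and 1070, 350 and 867 in fl/fl AA 2wk. Again only the fl/fl times were separate, and the difference was 2.15 ± 0.57 (unadjusted p = 0.00195). Cyp2d9, a male-biased cytochrome P450, had 7.80, 5.29 and 5.68 RPKM in PTKO AA 4wk, 5.47, 3.79 and 2.78 in PTKO AA 2wk, 4.95, 2.12 and 7.61 in fl/fl AA 4wk, and 20.8, 8.06 and 12.4 in fl/fl AA 2wk, with a difference of 1.90 ± 0.48 (unadjusted p = 0.00128). Its PTKO times overlapped, and its fl/fl times were separate.

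The other 6 were of low level. The differences were 0.96 for Guca1a, a guanylate cyclase activator, 1.11 for Gzma, a granzyme of cytotoxic lymphocytes, 0.81 for Enkur, a ciliary protein, 0.88 for the glycosyltransferase Glt1d1, 1.57 for A4gnt, another glycosyltransferase, and 1.69 for the microRNA gene Mir7013. Mir7013 had at most 2 reads in any AA library, and Gzma 12 to 42 reads. In 6 of the 10 genes (Hsd17b2, Mep1b, Cyp2d9, Glt1d1, Napsa and A4gnt) all 4 AA group means lay below both DMSO means. All 10 had a lower level in PTKO than in fl/fl at AA 2wk (median -0.76) and a higher one at AA 4wk (median 0.43). The difference is the genotype contrast at AA 4wk minus that at AA 2wk. The genes were chosen on it, which favours these signs, so they are a description and no test. The PTKO change was called in 3 of the 10 genes (Guca1a, Enkur and Mir7013), against 2.6% of all genes called higher in PTKO. The fl/fl change was called in 0, against 0.0661% of all genes called higher and 0.0587% called lower. The choice of genes favours such calls too, so these counts are no test. Without both AA 2wk libraries numbered 3 the 10 differences ran from 0.72 to 2.28. The 4 AA groups of Glt1d1 behaved like those of Hsd17b2, with both genotypes separate in opposite directions.

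**Figure D2:**
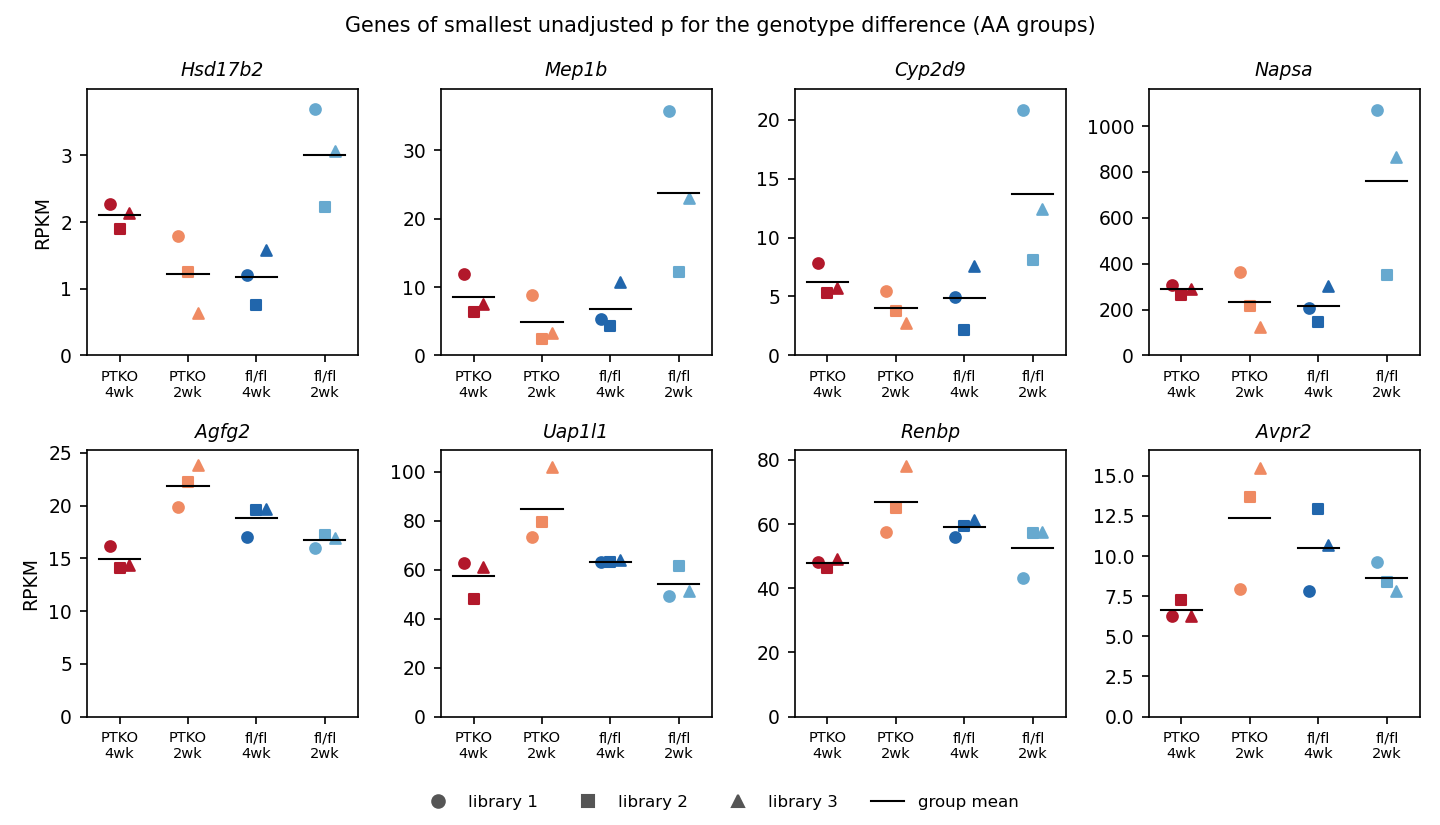
RPKM in each AA library of 8 of the 20 genes with the smallest unadjusted p for the difference, 4 positive (top) and 4 negative (bottom), with markers for library numbers and lines for group means. In the top row fl/fl AA 2wk holds the highest mean in each panel, and in the bottom row PTKO AA 2wk does.

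The 10 genes with the smallest p and a negative difference were mostly expressed at levels near those of DMSO cortex, and the highest group was PTKO AA 2wk in most. Agfg2, an adaptor of the nucleoporin-like Arf GAP family (chromosome 5, 137650463 to 137684806), had 16.2, 14.1 and 14.4 RPKM in PTKO AA 4wk, 19.9, 22.2 and 23.8 in PTKO AA 2wk, 17.0, 19.6 and 19.7 in fl/fl AA 4wk, and 16.0, 17.2 and 16.9 in fl/fl AA 2wk. The PTKO times were separate and the fl/fl times overlapped. The change in PTKO was called (-0.53, limma adjusted p = 0.0179), that in fl/fl was 0.16 (adjusted p = 0.532), and the difference was -0.69 ± 0.14 (SE, unadjusted p = 0.000147, adjusted p = 0.93).

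Uap1l1, a homologue of the enzyme that makes UDP-N-acetylglucosamine, had 62.6, 48.2 and 61.2 RPKM in PTKO AA 4wk, 73.3, 79.4 and 102 in PTKO AA 2wk, 63.0, 63.1 and 63.8 in fl/fl AA 4wk, and 49.2, 61.6 and 51.5 in fl/fl AA 2wk. Both genotypes were separate, lower at AA 4wk in PTKO and higher in fl/fl, with a difference of -0.78 ± 0.20 (unadjusted p = 0.0012). Renbp, N-acetylglucosamine 2-epimerase, which also binds renin, had 48.2, 46.4 and 49.1 RPKM in PTKO AA 4wk, 57.4, 65.0 and 78.1 in PTKO AA 2wk, 56.1, 59.5 and 61.4 in fl/fl AA 4wk, and 43.3, 57.1 and 57.5 in fl/fl AA 2wk. Here the PTKO times were separate and the fl/fl times overlapped, and the difference was -0.63 ± 0.16 (unadjusted p = 0.00136).

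Avpr2, the vasopressin V2 receptor of the collecting duct, had 6.29, 7.29 and 6.28 RPKM in PTKO AA 4wk, 7.96, 13.7 and 15.5 in PTKO AA 2wk, 7.81, 12.9 and 10.7 in fl/fl AA 4wk, and 9.65, 8.40 and 7.80 in fl/fl AA 2wk. The PTKO times were separate, the fl/fl times overlapped, and the difference was -1.0 ± 0.29 (unadjusted p = 0.00343). Lgmn, the lysosomal protease legumain, had the highest level among the 10, with 943, 818 and 804 RPKM in PTKO AA 4wk, 931, 1037 and 1386 in PTKO AA 2wk, 950, 969 and 923 in fl/fl AA 4wk, and 599, 845 and 744 in fl/fl AA 2wk, and a difference of -0.76 ± 0.20. Here the fl/fl times were separate and the PTKO times overlapped. The remaining 5 differences were -0.70 for the lysosomal dipeptidyl peptidase Dpp7, -0.69 for the ubiquitin ligase Rnf183, which is found in renal medulla, -0.48 for the scaffold protein Mapk8ip1, -0.44 for Glis2, a zinc finger factor whose loss causes nephronophthisis in humans, and -0.86 for S100z. S100z had 0 to 7 reads per AA library. The PTKO change was called in 7 of these 10 genes, against 1.56% of all genes called lower in PTKO. The fl/fl change was called in 0, against 0.0661% of all genes called higher and 0.0587% called lower. Choosing genes on a difference that holds the PTKO change favours such calls, so the count is no test. All 10 were higher in PTKO than in fl/fl at AA 2wk (median 0.40) and lower at AA 4wk (median -0.18), signs that the choice of genes favours. Without both AA 2wk libraries numbered 3 the 10 differences ran from -0.90 to -0.41.

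Opposite movement in every library was rare. In 10 genes (0.0734%) all PTKO AA 4wk libraries lay above all PTKO AA 2wk libraries while all fl/fl AA 4wk libraries lay below all fl/fl AA 2wk libraries, and in 3 genes (0.022%) the reverse held. Beside Hsd17b2, Glt1d1 and Uap1l1 they were Trmt12, A4galt, Siah2, Pigk, Rbm47, Gdpd3, 1700030J22Rik and Zfp560 with positive differences, and Gmpr and Commd4 with negative ones. These genes were picked out after their values were seen. The largest of the further differences was that of the lysophospholipase Gdpd3 (0.67 ± 0.29), followed by A4galt, which makes the globoside Gb3 (0.50 ± 0.17).

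In the AA 2wk groups the deviations of libraries of equal number were correlated (0.44, 0.43 and 0.66), although PTKO AA 2wk library 1 correlated best with fl/fl AA 2wk library 2. A fit with the number as a block within these groups called 5 genes. These were Hsd17b2 (1.39), Mep1b (2.46) and the monocarboxylate transporter Slc5a8 (1.89) with a positive difference, and Renbp (-0.63) and the tubule membrane protein Pdzk1ip1 (-0.80) with a negative one, each with a limma adjusted p of 0.0477. The same block gave 3234 calls for the PTKO change and 440 for the fl/fl change. Slc5a8 had 8.02, 5.84 and 3.96 RPKM in PTKO AA 4wk, 6.32, 2.29 and 1.31 in PTKO AA 2wk, 3.20, 4.08 and 4.76 in fl/fl AA 4wk, and 17.2, 6.31 and 7.56 in fl/fl AA 2wk. Pdzk1ip1 had 349, 301 and 377 RPKM in PTKO AA 4wk, 479, 608 and 739 in PTKO AA 2wk, 415, 439 and 492 in fl/fl AA 4wk, and 359, 443 and 583 in fl/fl AA 2wk. Slc5a8 overlapped between times in PTKO and was lower in every AA 4wk library in fl/fl, while Pdzk1ip1 was lower in every AA 4wk library in PTKO and overlapped in fl/fl. These 5 calls depend on the pairing, and without it 0 genes were called.

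Of the 30 proximal tubule genes tested, 0 were called for the difference and 22 had a negative value, with a median of -0.42 against 0.09 for all genes. The median was -0.41 without both libraries numbered 3, -0.17 without the PTKO one and -0.58 without the fl/fl one. The unadjusted p was under 0.05 for 6 negative and 2 positive members, against 1.28% of all genes on the negative and 1.96% on the positive side. The members described next were mostly picked after their values were seen. Slc34a1, the main phosphate transporter, had 789, 434 and 693 RPKM in PTKO AA 4wk, 849, 768 and 2226 in PTKO AA 2wk, 988, 1034 and 1186 in fl/fl AA 4wk, and 845, 834 and 1511 in fl/fl AA 2wk. Its difference was -0.93 ± 0.48 (SE, unadjusted p = 0.0719), and -0.45 without PTKO AA 2wk library 3, which held 2226 RPKM.

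Slc5a2, the glucose transporter SGLT2, had a difference of -0.91 ± 0.41, Slc34a3, a second phosphate transporter, -0.99 ± 0.44, the sulfate transporter Slc13a1 -0.90 ± 0.35, and the amino acid transporters Slc6a19 and Slc7a9 -1.09 ± 0.56 and -0.82 ± 0.38. Without PTKO AA 2wk library 3 these were -0.46 for Slc5a2, -0.57 for Slc34a3, -0.71 for Slc13a1, -0.66 for Slc6a19 and -0.41 for Slc7a9. The organic anion transporter Slc22a8 had 28.0, 7.83 and 20.0 RPKM in PTKO AA 4wk, 35.5, 38.1 and 123 in PTKO AA 2wk, 55.5, 52.5 and 65.0 in fl/fl AA 4wk, and 34.9, 32.0 and 158 in fl/fl AA 2wk. Its PTKO times were separate and its difference was -1.71 ± 0.79 (unadjusted p = 0.0481), while Slc22a6, the other main organic anion transporter, had -1.07 ± 0.80. Without PTKO AA 2wk library 3 the differences were -1.14 for Slc22a8 and -0.52 for Slc22a6. The endocytic receptor Lrp2 (megalin) had -0.43 ± 0.43, or -0.26 without that library.

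On the positive side stood Kap, the androgen-regulated protein of the proximal tubule, with 1512, 594 and 1148 RPKM in PTKO AA 4wk, 1529, 618 and 410 in PTKO AA 2wk, 763, 465 and 1649 in fl/fl AA 4wk, and 5127, 1343 and 1951 in fl/fl AA 2wk. The times overlapped in both genotypes, and the difference was 1.98 ± 0.78 (unadjusted p = 0.0236). DMSO cortex averaged 48290 RPKM in PTKO and 44503 in fl/fl. Slc22a13, an organic anion transporter, had the smallest p of the list (1.76 ± 0.47, unadjusted p = 0.00203), and Slc22a7, a further member of that family, had 1.48 ± 0.77. Slc7a13, an amino acid transporter of the late proximal tubule that is more abundant in males, had 1.87 ± 0.70. In Kap, Slc22a13 and Slc7a13 fl/fl AA 2wk held the highest mean, and fl/fl AA 2wk library 1 the highest value. Without that library the differences of Kap and Slc22a13 were both 1.42.

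**Figure D3:**
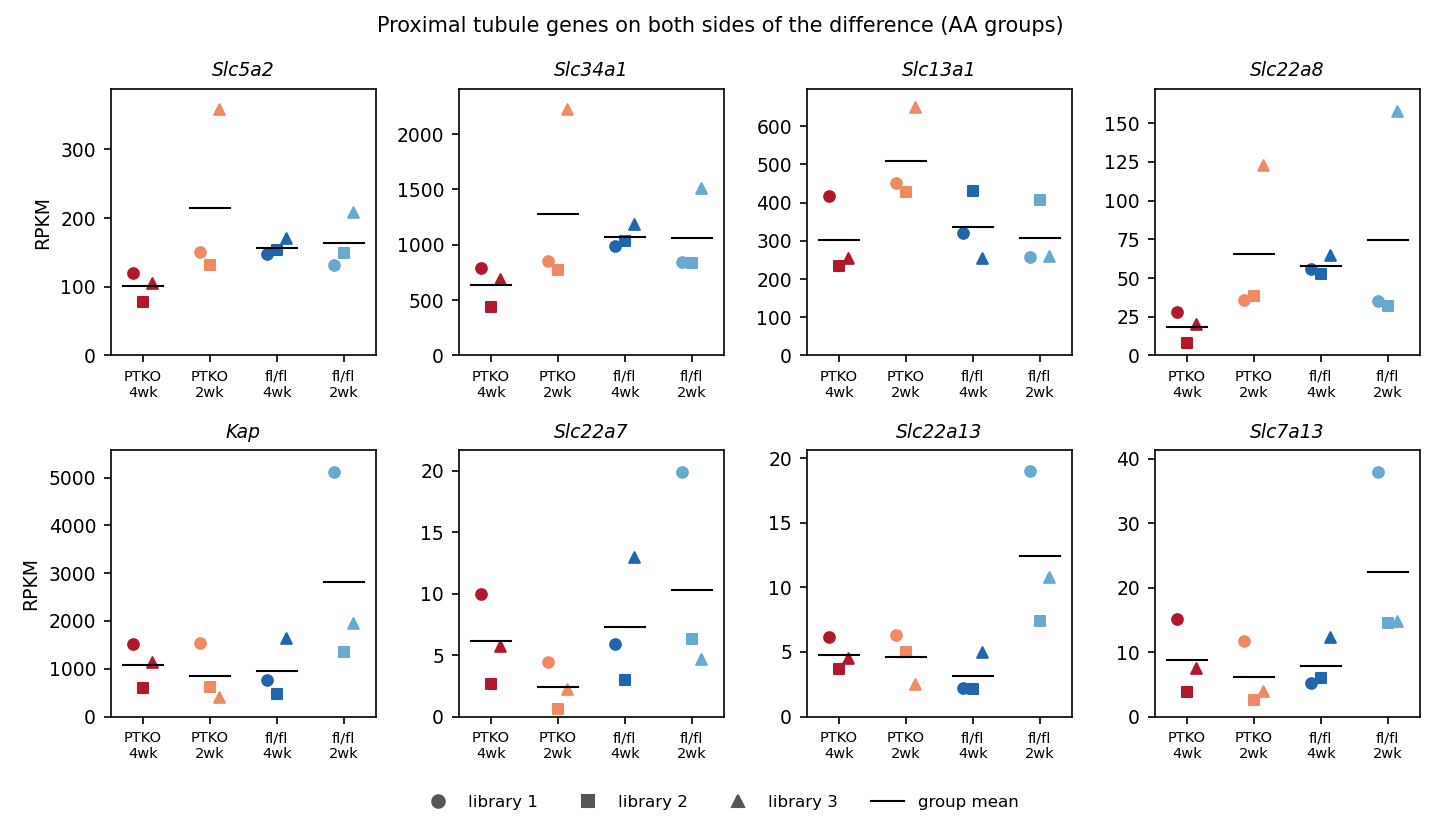
RPKM in each AA library of 8 tubule genes, most of them chosen after their values were seen, 4 with a negative difference (top) and 4 with a positive one (bottom), with markers for library numbers and lines for group means. In the top row PTKO AA 4wk holds the lowest mean in each panel, and in the bottom row fl/fl AA 2wk holds the highest.

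Genes of mitochondrial energy supply had small negative differences with little variation among members, and 0 were called. All 48 oxidative phosphorylation genes tested were negative, from -0.87 to -0.07, with a median of -0.23, and all 17 genes of the tricarboxylic acid cycle were negative, from -0.55 to -0.06, with a median of -0.19. Members of a complex vary together, so the shared sign is not independent evidence from each gene. The mean log2(RPKM + 1) of the oxidative phosphorylation list was 7.12, 7.07 and 7.33 in PTKO AA 4wk, 7.41, 7.43 and 7.82 in PTKO AA 2wk, 7.39, 7.52 and 7.62 in fl/fl AA 4wk, and 7.59, 7.41 and 7.95 in fl/fl AA 2wk. The list mean was lower in every PTKO AA 4wk library than in any other AA library, and the fl/fl times overlapped. In PTKO 3 of the 48 members were called lower (Cox7a2, Cox5a and Ndufc1), against 1.56% of all genes, and in fl/fl 0, against 0.0587% of all genes. Without both AA 2wk libraries numbered 3 the median of the difference was -0.25. It was -0.10 without PTKO AA 2wk library 3 alone and -0.38 without fl/fl AA 2wk library 3 alone. The smallest p in the list was that of the ATP synthase subunit gene Atp5g1 (-0.87 ± 0.31, unadjusted p = 0.0125), and in the tricarboxylic acid cycle that of Suclg2, a succinyl-CoA ligase subunit (-0.55 ± 0.25, unadjusted p = 0.0424, and -0.33 without PTKO AA 2wk library 3). The tricarboxylic acid cycle median was -0.06 without that library, -0.33 without fl/fl AA 2wk library 3 and -0.21 without both.

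Genes of fatty acid oxidation, a pathway that Klf15 is known to regulate, had small differences of both signs. Of the 24 mitochondrial genes tested, 16 were negative, with a median of -0.14 and a range from -0.58 to 0.16, and 0 were called in either genotype's change. Cpt1a, the carnitine palmitoyltransferase that admits fatty acids to mitochondria, had 107, 94.3 and 106 RPKM in PTKO AA 4wk, 84.1, 80.9 and 154 in PTKO AA 2wk, 119, 115 and 105 in fl/fl AA 4wk, and 124, 76.8 and 154 in fl/fl AA 2wk. All of these groups overlapped, and the difference was 0.02 ± 0.32 (unadjusted p = 0.948). The medium-chain dehydrogenase Acadm had a difference of 0.11 ± 0.26, the thiolase Acaa2 -0.58 ± 0.43, and the thioesterase Acot13 -0.45 ± 0.21, the last with the smallest p of the list (0.0465, unadjusted). The median was -0.11 without both libraries numbered 3, 0.05 without PTKO AA 2wk library 3 and -0.28 without fl/fl AA 2wk library 3. Without fl/fl AA 2wk library 2 it was 0.08.

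Peroxisomal genes gave a median of -0.14 (4 of 19 positive) and the nuclear receptor Ppara and its targets one of -0.13 (7 of 16 positive). Without PTKO AA 2wk library 3 these were 0.07 and 0.14, without fl/fl AA 2wk library 3 -0.33 and -0.43, and without both -0.06 and -0.14. Ppara had a difference of 0.04 ± 0.41 and its coactivator Ppargc1a 0.01 ± 0.25. Within the Ppara list the pyruvate dehydrogenase kinase Pdk4 had a difference of 1.26 ± 0.48 (unadjusted p = 0.02) and the lipid droplet protein Plin2 of 0.40 ± 0.18 (unadjusted p = 0.0458). Plin2 had 133, 99.2 and 117 RPKM in PTKO AA 4wk, 118, 146 and 100 in PTKO AA 2wk, 119, 104 and 111 in fl/fl AA 4wk, and 161, 152 and 145 in fl/fl AA 2wk, so that only the fl/fl times were separate. For genes of branched-chain amino acid breakdown the median was -0.11 (6 of 24 positive), with Bcat2, the mitochondrial aminotransferase, at -0.05 ± 0.25 and Bcat1, the cytosolic one, at 1.12 ± 0.55. Without PTKO AA 2wk library 3 that median was -0.01 and the Bcat1 difference 0.54. The median was -0.34 without fl/fl AA 2wk library 3 and -0.22 without both. Gluconeogenesis gave -0.38 (3 of 10 positive), with glucose-6-phosphatase, G6pc, at -1.02 ± 0.60 and Fbp2 at -0.48 ± 0.25, and glycolysis 0.05 (10 of 16 positive), with pyruvate kinase, Pkm, at 0.28 ± 0.17. The gluconeogenesis median was -0.10 without PTKO AA 2wk library 3, -0.58 without fl/fl AA 2wk library 3 and -0.30 without both. G6pc was -0.57 without the PTKO one.

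Extracellular matrix genes had the highest median difference of the lists with at least 3 tested genes when all libraries were used, and 0 of 33 were called. Without both libraries numbered 3 the T cell (0.87) and interferon (0.65) medians were above the matrix median (0.53). The median was 0.73, 31 of the 33 were positive, and the values ran from -0.37 for the metalloproteinase inhibitor Timp3 to 1.82 for the type III collagen gene Col3a1. Col1a1, of type I collagen, had 98.4, 101 and 92.8 RPKM in PTKO AA 4wk, 71.8, 33.5 and 2.16 in PTKO AA 2wk, 62.5, 57.9 and 44.4 in fl/fl AA 4wk, and 68.9, 49.1 and 11.7 in fl/fl AA 2wk. Every PTKO AA 4wk library lay above every PTKO AA 2wk library, and the fl/fl times overlapped. The lowest library of each AA 2wk group was the one numbered 3. The difference of Col1a1 was 1.66 ± 1.22 (unadjusted p = 0.193), 1.07 without both of these libraries and 0.33 without PTKO AA 2wk library 3 alone. Fibronectin, Fn1, had 0.73 ± 0.75 and the growth factor Tgfb1 0.35 ± 0.38, which were 0.04 and 0.02 without PTKO AA 2wk library 3.

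The median of the matrix list was likewise 0.17 without the PTKO library numbered 3 and 1.14 without the fl/fl one. The 13 fibroblast and pericyte genes were all positive, with a median of 0.64. That median was 0.38 without both libraries numbered 3, 0.20 without the PTKO one and 1.0 without the fl/fl one. Members ran from the contractile filament gene Des (0.09) to the proteoglycan Dcn (1.87 ± 1.11, or 0.68 without the PTKO one). Smooth muscle actin, Acta2, had 0.19 ± 0.83, or -0.38 without the PTKO one. The part of these 2 libraries in the list values was not tested beyond leaving them out.

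**Figure D4:**
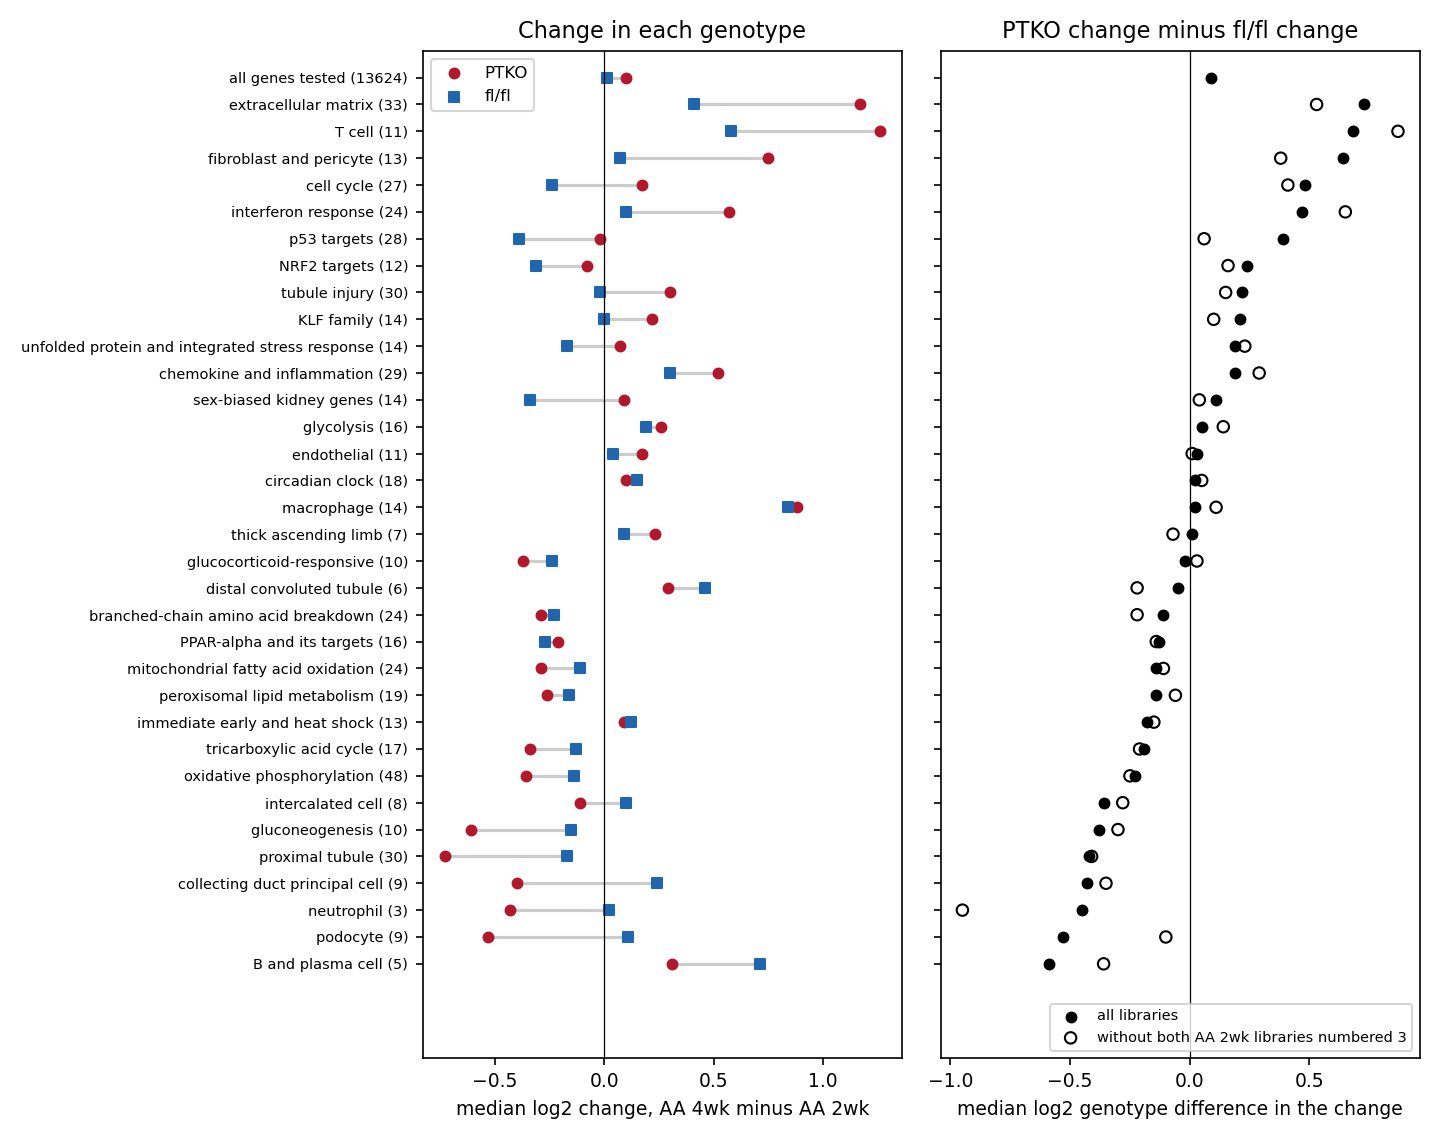
Median log2 change of each gene list in PTKO (red circles) and fl/fl (blue squares) on the left, and median difference on the right with all libraries (filled) and without both AA 2wk libraries numbered 3 (open), with the number of genes tested in brackets. Extracellular matrix (0.73) stands at the high end of the difference with all libraries. At the low end are B and plasma cell (-0.59), podocyte (-0.53), neutrophil (-0.45), collecting duct principal cell (-0.43) and proximal tubule genes (-0.42). Without both AA 2wk libraries numbered 3 the extracellular matrix median was 0.53 and the podocyte median -0.10.

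All 14 macrophage genes had a positive change in both genotypes, with medians of 0.88 in PTKO and 0.84 in fl/fl, and the median of the difference was 0.02 (7 of 14 positive). In PTKO 3 were called higher (Apoe, Csf1r and Cd163), against 2.6% of all genes, and in fl/fl 0, against 0.0661%. The list mean was 6.71, 6.97 and 6.53 in PTKO AA 4wk, 6.07, 6.28 and 4.99 in PTKO AA 2wk, 6.51, 6.07 and 6.19 in fl/fl AA 4wk, and 5.44, 6.27 and 4.37 in fl/fl AA 2wk, as mean log2(RPKM + 1). The times were separate in PTKO and overlapped in fl/fl, and library 3 was the lowest of each AA 2wk group. Apoe, a lipid carrier made by macrophages, had 1949, 3061 and 2202 RPKM in PTKO AA 4wk, 724, 927 and 536 in PTKO AA 2wk, 1898, 1610 and 1428 in fl/fl AA 4wk, and 544, 969 and 438 in fl/fl AA 2wk. The times were separate in both genotypes, and the difference was 0.32 ± 0.39 (unadjusted p = 0.433). Lyz2, lysozyme, had a difference of -0.28 ± 1.02. The macrophage median was -0.42 without fl/fl AA 2wk library 2, 0.59 without fl/fl AA 2wk library 3, -0.30 without PTKO AA 2wk library 3 and 0.11 without both libraries numbered 3.

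All 11 T cell genes had a positive difference, with a median of 0.68 and 0 called. Their mean level was 4.0, 4.08 and 3.91 in PTKO AA 4wk, 3.64, 3.0 and 1.65 in PTKO AA 2wk, 3.61, 3.42 and 3.53 in fl/fl AA 4wk, and 3.48, 3.85 and 1.41 in fl/fl AA 2wk, as mean log2(RPKM + 1). PTKO AA 4wk was above all other AA libraries. Cd3g, a chain of the T cell receptor complex, had 27.3, 29.3 and 26.7 RPKM in PTKO AA 4wk, 21.9, 13.1 and 3.15 in PTKO AA 2wk, 19.3, 15.7 and 18.2 in fl/fl AA 4wk, and 18.9, 28.6 and 3.30 in fl/fl AA 2wk. Its difference was 0.93 ± 0.84 (unadjusted p = 0.288), against 1.06 without both libraries numbered 3 and 0.22 without the PTKO one. The T cell list gave 0.87 and 0.12 in the same order, and 1.36 without the fl/fl one. The smallest p was that of the interleukin-7 receptor, Il7r (0.94 ± 0.63, unadjusted p = 0.155).

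Interferon-response genes gave a median of 0.47 (21 of 24 positive), with Oasl2 at 0.91 ± 0.50, and chemokine and inflammation genes 0.19 (21 of 29 positive), with Il1b at -1.31 ± 0.79. The interferon median was 0.21 without PTKO AA 2wk library 3, 0.84 without fl/fl AA 2wk library 3 and 0.65 without both, and that of the chemokine list -0.13, 0.68 and 0.29 in the same order. B and plasma cell genes gave -0.59 (0 of 5 positive), with Mzb1 at -1.37 ± 0.58 and levels between 0.168 and 5.48 RPKM, and -0.36 without both libraries numbered 3. The 3 neutrophil genes tested gave -0.45, or -0.95 without both. The adipocyte list had Cfd alone above the filter, at 38.9 RPKM in PTKO AA 4wk library 2 and at most 1.47 RPKM in the other AA libraries. That library also had the lowest proximal tubule mean of the 12 (5.47, against 5.95 to 7.17), and the proximal tubule median of the difference was -0.26 without it. The part of admixed fat in that value was not tested.

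**Figure D5:**
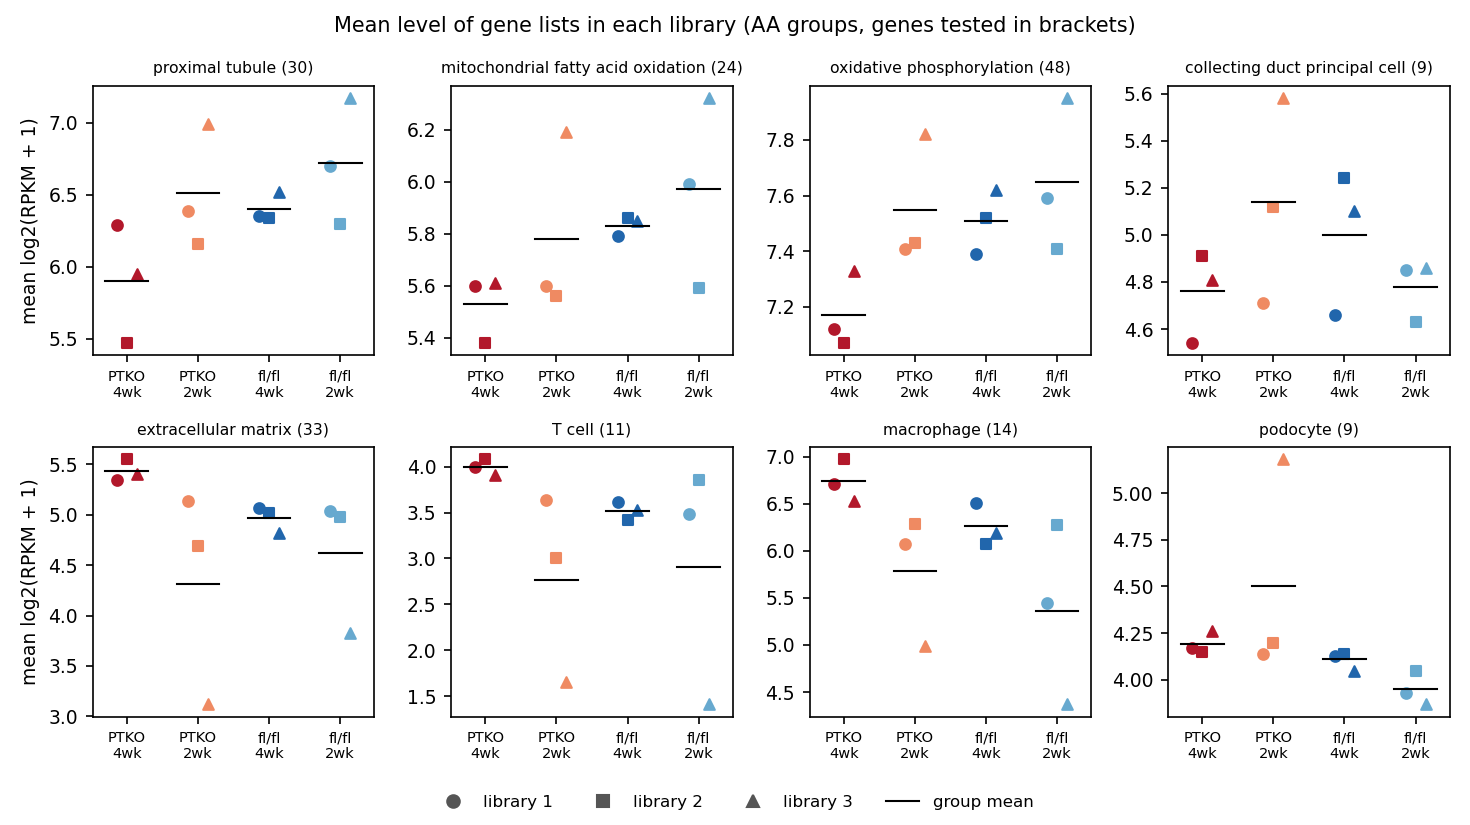
Mean log2(RPKM + 1) of 8 gene lists in each AA library, with markers for library numbers and lines for group means. The AA 2wk libraries numbered 3 hold the highest proximal tubule means (6.99 in PTKO and 7.17 in fl/fl) and the lowest T cell means (1.65 in PTKO and 1.41 in fl/fl), and PTKO AA 2wk library 3 the highest podocyte mean (5.18).

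Tubule injury genes were mixed. Of 30 tested, 20 were positive, a share near the 67.5% of all genes, with a median of 0.22 and 0 called. The median was -0.16 without PTKO AA 2wk library 3, 0.48 without fl/fl AA 2wk library 3 and 0.15 without both. Havcr1, the injury marker KIM-1, had 327, 270 and 327 RPKM in PTKO AA 4wk, 383, 579 and 58.7 in PTKO AA 2wk, 331, 266 and 391 in fl/fl AA 4wk, and 433, 573 and 579 in fl/fl AA 2wk. The fl/fl times were separate and the PTKO times were not, and the difference of 1.06 ± 1.22 (unadjusted p = 0.397) was -0.00 without both libraries numbered 3. Lcn2, a secreted iron-siderophore carrier, had a difference of -0.58 ± 0.81, or -0.01 without both.

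The p53 targets had a median of 0.39 (25 of 28 positive), which was 0.06 without both libraries numbered 3 and 0.09 without the PTKO one. Their mean level was 5.03, 4.96 and 5.01 in PTKO AA 4wk, 5.22, 5.37 and 4.46 in PTKO AA 2wk, 5.04, 4.91 and 5.08 in fl/fl AA 4wk, and 5.26, 5.48 and 5.40 in fl/fl AA 2wk. The lowest of these values was that of PTKO AA 2wk library 3, and fl/fl AA 2wk library 3 lay within the range of its group. Cdkn1a, the cell cycle inhibitor p21, had 0.25 ± 0.25, and the death receptor Fas 0.48 ± 0.21, which were 0.05 and 0.29 without the PTKO one. Of 27 cell cycle genes 26 were positive in the difference, with a median of 0.48. That median was 0.41 without both libraries numbered 3, 0.08 without the PTKO one and 0.81 without the fl/fl one. All 27 had a negative change in fl/fl (median -0.24) and 26 a positive one in PTKO (median 0.17), with 0 called in each. Their mean log2(RPKM + 1) was 3.24, 3.08 and 2.93 in PTKO AA 4wk and 3.43, 3.13 and 2.17 in PTKO AA 2wk. In fl/fl it was 2.79, 2.65 and 2.72 at AA 4wk and 3.2, 3.43 and 2.35 at AA 2wk. In PTKO AA 2wk only library 3 lay below the AA 4wk values, so the higher PTKO mean at AA 4wk rested on it. The proliferation marker Mki67 had 0.49 ± 0.54, and the mitotic kinase Plk1 0.78 ± 0.43, which were 0.05 and 0.40 without the PTKO one.

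Genes of the collecting duct principal cell were all on the negative side, 9 of 9, with a median of -0.43 and 0 called. Aqp2, the vasopressin-regulated water channel, had 82.1, 132 and 119 RPKM in PTKO AA 4wk, 121, 185 and 313 in PTKO AA 2wk, 105, 207 and 187 in fl/fl AA 4wk, and 123, 92.1 and 103 in fl/fl AA 2wk. The times overlapped in both genotypes, and the difference was -1.41 ± 0.47 (unadjusted p = 0.00879), or -1.04 without both libraries numbered 3. The water channel Aqp3 had -0.79 ± 0.38, or -0.45 without the PTKO library numbered 3. The list median was -0.35 without both libraries numbered 3, -0.20 without the PTKO one and -0.51 without the fl/fl one. Podocyte genes gave a median of -0.53 (1 of 9 positive), with the slit diaphragm gene Nphs1 at -0.81 ± 0.47 and Wt1 at -0.66 ± 0.32. Without both libraries numbered 3 the median was -0.10, Nphs1 -0.25 and Wt1 -0.36. PTKO AA 2wk library 3 had Nphs1 at 32.1 RPKM against 6.62 to 9.64 RPKM in the other AA libraries. How much glomerulus, cortex or outer medulla each piece held is unknown here, and its part in these values was not tested.

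Intercalated cell genes gave -0.36 (2 of 8 positive), with Atp6v1g3 at -0.46 ± 0.24. That median was -0.07 without PTKO AA 2wk library 3, -0.58 without fl/fl AA 2wk library 3 and -0.28 without both. Thick ascending limb genes gave 0.01 (5 of 7), with Egf at 0.42 ± 0.95, distal convoluted tubule genes -0.05 (3 of 6), with Wnk4 at -0.25 ± 0.34, and endothelial genes 0.03 (6 of 11), with Kdr at -0.54 ± 0.35. Without PTKO AA 2wk library 3 these medians were 0.26, 0.01 and -0.03, and without both -0.07, -0.22 and 0.01. Without fl/fl AA 2wk library 3 they were -0.36, -0.46 and 0.0. NRF2 targets gave 0.24 (11 of 12 positive), with Gclm of glutathione synthesis at 0.38 ± 0.16, and unfolded protein response genes 0.19 (13 of 14), with Trib3 at 0.62 ± 0.29. The 2 medians were 0.15 and 0.00 without PTKO AA 2wk library 3, and 0.12 and 0.42 without the fl/fl one. Circadian clock genes gave 0.02 (11 of 18 positive), with Nr1d1 at 0.37 ± 0.20 and Per1 at 0.82 ± 0.49, and glucocorticoid-responsive genes -0.02 (5 of 10), with Fkbp5 at 0.13 ± 0.35. Immediate early and heat shock genes gave -0.18 (6 of 13), sex-biased kidney genes 0.11 (8 of 14), and the 2 erythroid genes 0.50, which without fl/fl AA 2wk library 3 were 0.15, 0.13 and 0.07. None of the 35 lists held a gene called for the difference by limma without the block, and 2 held no more than 2 tested genes.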

How the data were processed

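RNA of mouse kidney cortex was sequenced by the authors from TruSeq Stranded Total RNA libraries, per the labels' protocols. The authors deposited an RPKM matrix of 24062 genes by 18 libraries, per the file headers. Build mm10, kallisto and bcl2fastq 2.19 are named in the submitters' processing notes, and the way reads were assigned to genes is not given in the sources used here. Whole reads were recovered from RPKM steps for 100.0% of 17579 genes with values in at least 6 libraries (tolerance 0.02 reads), which gave the depth. Genes that reached 1 RPKM in 3 or more libraries were fitted on log2(RPKM + 1), which understates changes of low genes, with limma 3.58.1 in R 4.3.3 (6 group means, 18 libraries, trend, robust), two-sided, with Benjamini-Hochberg adjustment over 13624 genes and calls at 0.05. The fit was tested on simulated data with independent noise in each library. These data held neither the deviating AA 2wk libraries nor their correlation, so the test does not cover them. An exact permutation test of the difference was not run. SE values come from limma. Coordinates are RefSeq GRCm38.

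The comparison, 22 of the named genes and the 35 gene lists were chosen with earlier results of these data known. Named were also the 10 genes of smallest p in each direction and the member of smallest p in each list, and genes singled out after their values were seen, namely the members of opposite movement, those called with the block and 14 list members. A few genes that these rules select are not reported here. Same-numbered libraries of the AA 2wk groups had correlated deviations (0.44, 0.43 and 0.66), which is a hint from the data and not in the labels, and PTKO library 1 correlated best with fl/fl library 2; over all 4 AA groups correlations ran from -0.15 to 0.66, so the main fit has no block.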

Additional observations from a re-analysis of the deposited data

Results flagged for a closer look

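In 13 genes all AA 4wk libraries lay on one side of all AA 2wk libraries in PTKO and on the other in fl/fl. They were 10 genes (0.0734% of genes tested) higher at AA 4wk in PTKO and 3 (0.022%) lower, picked after their values were seen. The gap could be small, as for Trmt12 in fl/fl, with 1.92 RPKM at AA 4wk against 1.93 at AA 2wk. The difference in log2 change was 1.39 for Hsd17b2, 0.88 for Glt1d1, 0.41 for Trmt12, 0.5 for A4galt, 0.35 for Siah2, 0.2 for Pigk, 0.45 for Rbm47, 0.67 for Gdpd3, 0.41 for 1700030J22Rik and 0.29 for Zfp560, and -0.78 for Uap1l1, -0.49 for Gmpr and -0.3 for Commd4. None passed the limma test of the difference with Benjamini-Hochberg adjustment over 13624 genes, and only Hsd17b2 did with the replicate block within the AA 2wk groups (adjusted p = 0.0477). No group had 4 or more libraries, so single libraries were not tested as outliers.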

How the results depend on the processing

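The difference stayed at 0 calls with pseudocounts of 0.1 and 0.5, no filter, a filter on the AA libraries, both other scalings, the AA libraries only, no trend, gene-by-gene quality weights, voom, the replicate block over all groups and without both AA 2wk libraries numbered 3 (911 at an unadjusted p under 0.05). It gave 5 calls with the replicate block within the AA 2wk groups, 140 with quality weights by REML, which stopped before convergence and were added after seeing the data, and 0 to 1 when each library was left out, the 1 being Slc5a10 (1.94, adjusted p = 0.0498) without fl/fl AA 2wk library 2. Calls for the changes in PTKO and fl/fl were 292 and 10 with pseudocount 0.1, 1082 and 37 with quantile normalization, 11 and 2 in the AA libraries only, 1307 and 781 with gene-by-gene weights, 1939 and 3575 with REML weights, 1570 and 40 with the block over all groups, 3234 and 440 with the block within AA 2wk, and 295 and 10 with voom. The fl/fl change had 43 calls without both libraries numbered 3. Leaving out 1 library gave 10 to 1599 calls in PTKO, where 293 without PTKO AA 2wk library 2, 374 without fl/fl AA 4wk library 2 and 369 without fl/fl AA 4wk library 3 also moved by over 1.5 times. In fl/fl it gave 1 to 161, with 161 and 90 without fl/fl AA 2wk library 2 and PTKO AA 2wk library 3, 28 and 10 without PTKO AA 4wk libraries 1 and 3, 5 and 6 without fl/fl AA 2wk libraries 1 and 3, and 1, 5 and 7 without fl/fl AA 4wk libraries 1, 2 and 3. The cause was not tested.

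Of 100 named genes, 17 changed the sign of an uncalled difference. Under median-of-ratios scaling these were Cpt1a (-0.08), Ppara (-0.05) and Ppargc1a (-0.08), and under quantile normalization Ppara (-0.06) and Ppargc1a (-0.10). Without both libraries numbered 3 they were Ppara (-0.22), Ppargc1a (-0.17), Havcr1 (-0.00) and Lyz2 (0.09), and with gene-by-gene weights Klf15 (0.03), Ppara (-0.13), Bcat2 (0.05), Cdkn1a (-0.00) and Acta2 (-0.03). Leaving out 1 library gave -0.43 to 0.14 for Klf15, -0.20 to 0.32 for Cpt1a, -0.01 to 0.34 for Acadm, -0.43 to 0.32 for Ppara, -0.19 to 0.25 for Ppargc1a and -0.24 to 0.15 for Bcat2. It gave -1.09 to 0.13 for Lcn2, -0.38 to 0.77 for Acta2, -1.15 to 0.69 for Lyz2, -0.08 to 0.30 for Fkbp5, -0.01 to 0.56 for Apoe, -1.36 to 0.01 for S100a8, -0.41 to 1.41 for Egf, -0.47 to 0.01 for Wnk4 and -0.47 to 2.19 for Cfd. Of 875 list medians under these alternatives 26 moved by more than the pooled SD between libraries within the AA groups. The libraries numbered 3 widen that SD, which for T cell genes was 1.02 in PTKO AA 2wk and 1.31 in fl/fl AA 2wk. The count therefore does not show that the medians were stable. Without PTKO AA 2wk library 3, for example, the T cell median went from 0.68 to 0.12.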

Other observations

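Of the 10 genes with the smallest p and a negative difference, 4 formed 2 pairs of neighbours on the chromosome. Dpp7 and Uap1l1 lie 5.1 kb apart on chromosome 2 (25352290 to 25356389 and 25361489 to 25365682), and Avpr2 and Renbp 27.69 kb apart on chromosome X (73891765 to 73894428 and 73922121 to 73930850), by RefSeq coordinates in GRCm38. Their differences were -0.70, -0.78, -1.0 and -0.63. The pairs were noticed after the genes were listed, and no test was made.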
